A study of Pinus pinaster with 18 samples.

Results

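Opaque pre-cotyledonary somatic embryos (ES2) of maritime pine, *Pinus pinaster*, were compared with early-cotyledonary zygotic embryos (EC), the middle of 3 stages sampled in each embryo type. ES2 embryos came from a single embryogenic line, PN519, started from a controlled cross, after 6 to 10 weeks of maturation in the dark, at 24 °C, on a gel of 9 g/L phytagel that held abscisic acid (80 µM) and sucrose (68 g/L). EC embryos were taken in mid to late July out of seeds from trees of a single orchard, with no culture and no added hormone. There were 3 libraries in each of these groups (ES2 A, B and C, EC 1, 2 and 3) among 18 in the series. Embryo type cannot be told apart from genotype, culture medium, harvest and developmental stage (pre-cotyledonary in ES2, early-cotyledonary in EC). Of 287424 transcripts in the table of read counts, 22795 were above 2 CPM (the count scaled to a common library total) in at least 3 of these 6 libraries and make up the comparison. At that limit, ppt_140696 just passed with 2.006 CPM as its third-highest value, and ppt_159820, with 1.995 CPM, did not. All levels given from here on are CPM after TMM scaling, which corrects library sizes for differences in composition, and log2 fold changes are ES2 over EC. Levels are not compared between transcripts, since their lengths were not used.

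A conifer seed embryo first builds its body plan by cell division and then forms cotyledons, fills its cells with storage protein and oil, and prepares for drying. The last of these steps depends on abscisic acid, which in culture is supplied with the medium and in the seed comes from the plant. Late embryogenesis abundant (LEA) proteins, oil body proteins and storage globulins mark the later steps, while replication proteins, mitotic cyclins and the enzymes that copy DNA methylation mark dividing cells. A zygotic embryo grows inside the megagametophyte, a storage tissue that feeds it, whereas a somatic embryo takes sugar and nitrogen from the medium.

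Library totals were 38597996 to 40755797 counts in ES2 and 24726220 to 38189316 in EC, and 99.7% of the counts of each library fell in the transcripts compared. TMM factors were 0.864 to 0.934 in ES2 and 1.09 to 1.15 in EC. Replicates correlated at r = 0.974 to 0.984 across transcripts in ES2 and at 0.975 to 0.985 in EC, and the 9 pairs of an ES2 with an EC library at 0.711 to 0.752 (log2 CPM, transcripts are not independent replicates). The methods speak of independent biological samples and of technical replicas. Which of these the 3 libraries of each group were is not stated in the labels. The p-values therefore rest on the spread among libraries, possibly only a technical one.

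A transcript is called higher or lower in ES2 where its log2 fold change was above 1 or below -1 with an adjusted p below 0.05 in edgeR's quasi-likelihood test of the 6 libraries. By this rule 5170 transcripts (22.7% of those tested) were higher and 3902 (17.1%) were lower in ES2, together 39.8%, and 13723 were not called. Large changes went both ways, with 963 higher and 651 lower by more than 4 on the log2 scale. Beyond 8 there were 222 higher and 307 lower. Values of this size include those of transcripts with no count in a group (138 in EC and 232 in ES2). For these the fitted fold change is no measure of size. The transcripts called higher took 32.8 to 34.7% of the counts of ES2 libraries and 10.8 to 12.8% of those of EC libraries. Those called lower took 3.18 to 3.33% in ES2 and 12.2 to 14.6% in EC. The balance of the calls depended on the scaling: the median log2 fold change over all tested transcripts was -0.03 with TMM. Scaling by library size alone moved it to -0.34 and gave 4225 higher and 5532 lower. No median of the lists below changed its sign between these scalings.

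**Figure D1:**
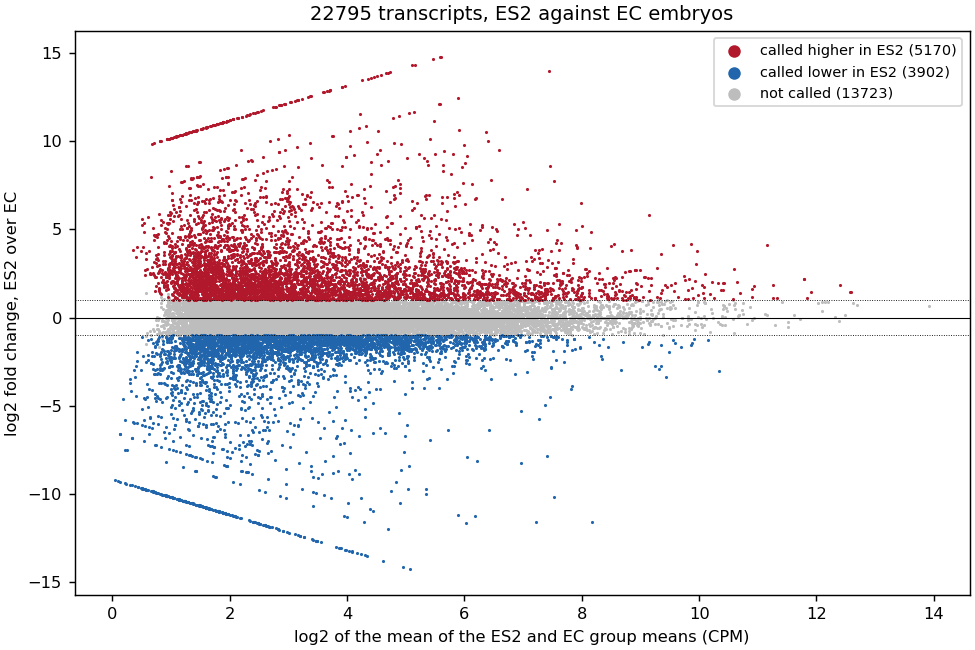
Each point is 1 of the 22795 transcripts, with the mean level of both groups (log2 CPM) on the x axis and the log2 fold change of ES2 over EC on the y axis, and the dotted lines mark 1 and -1. The 5170 higher and 3902 lower calls spread over all levels, and the narrow diagonal bands at the top and bottom are transcripts with no count, or only a few counts, in 1 of the groups, whose fitted fold change is no measure of size.

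Protein name entries existed for 2909 of the transcripts, and 1552 of these, the named transcripts, say what the protein is. All entries came from the tables of hub genes and co-expression modules of the study and are mostly matches in other species. The study chose those genes on these same libraries, and 653 of the 1552 were called higher and 742 lower, far above the 39.8% called among all. The counts of the named groups below are therefore descriptions and no independent evidence of a direction. A name was shared with another transcript in 1148 of the 1552 cases, and reads of near-identical copies or isoforms could be split between these, so single members of a family are uncertain. By keyword, 1117 tested transcripts (of 1168 in the tables) fell into 19 lists. The keywords were matched on all entries except uncharacterized and predicted proteins, so a member need not be among the 1552. Some lists passed the filter largely through ES2 alone, such as 63 of the 87 pathogenesis-related transcripts, and those members had to differ to be tested at all. The same holds for 22 of 65 redox, 19 of 71 cell wall, 19 of 65 hormone and 15 of 49 carbon transcripts. Through EC alone 13 of the 40 immune receptors passed. Among the 76 transporters 13 passed through ES2 alone and 9 through EC alone.

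**Figure D2:**
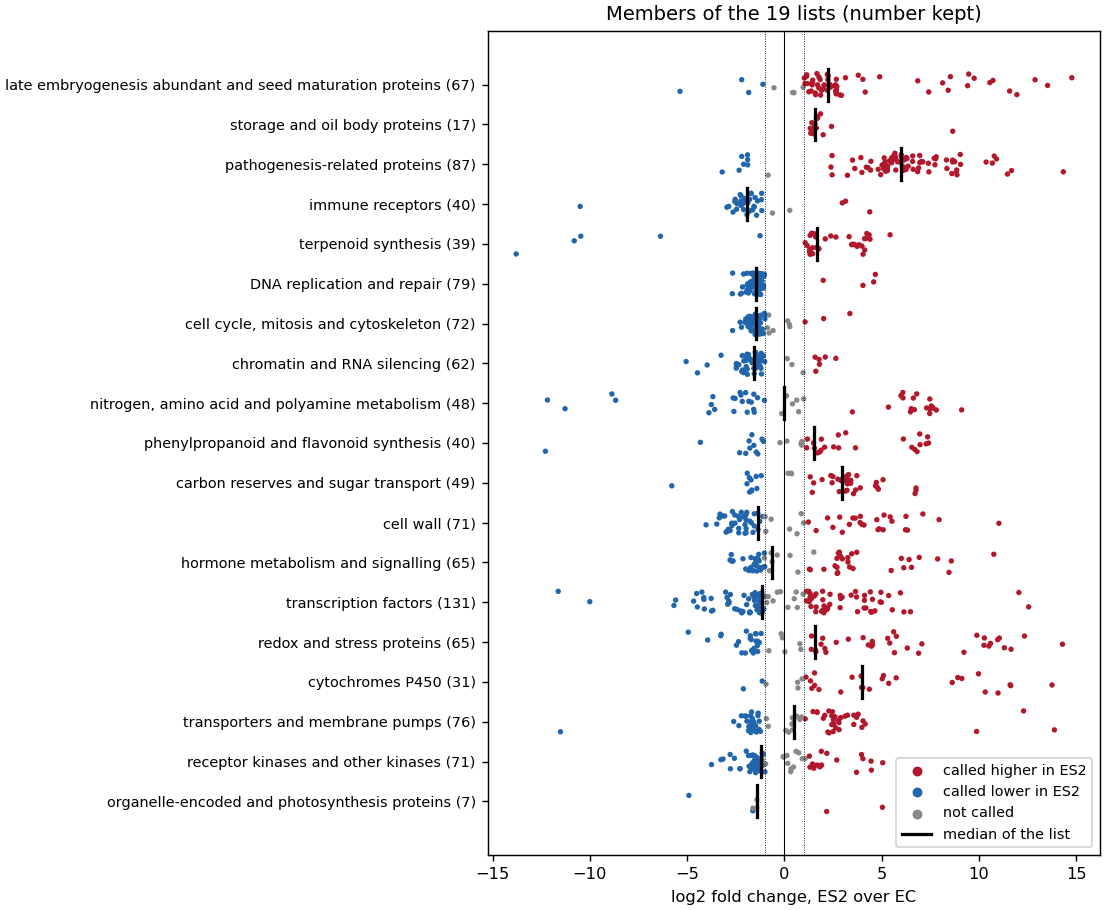
Log2 fold change (x axis, ES2 over EC) of each tested member of the 19 lists, with the number of members beside the list's name and a bar at the median, and points jittered vertically. Pathogenesis-related proteins sit far to the right with a median of 6.01, replication, cell cycle and chromatin lists form narrow clouds near -1.5, and nitrogen and hormone lists spread to both sides.

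Proteins of seed maturation were mostly higher in the somatic embryos. Of 67 LEA and seed maturation transcripts 59 were higher and 4 lower in ES2, with a median log2 fold change of 2.23 against -0.03 over all transcripts. Their summed level was 14430 to 16510 CPM in ES2 and 4226 to 4698 CPM in EC. Of these 67, 16 passed the filter through ES2 alone and 1 through EC alone, and so had to differ to be tested. The 17 transcripts that the keywords for oil body and storage proteins found were all higher (median 1.57), with summed levels of 1097 to 1484 CPM in ES2 and 313.5 to 479.1 CPM in EC, so that the libraries of the groups did not overlap in either list.

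A LEA transcript named after white spruce, ppt_93454, had 119, 129 and 135 CPM in ES2 A, B and C, against 0.112, 0.160 and 0.151 CPM in EC 1, 2 and 3. All 3 zygotic libraries held it at a trace level, and its log2 fold change was 9.75 (SE 0.19, edgeR adjusted p = 3.40e-08). LTI6B, a small hydrophobic membrane protein of the cold response in rice (ppt_93242), had 187, 144 and 195 CPM in ES2 and 10.2, 10.3 and 9.10 CPM in EC, a log2 fold change of 4.15 (SE 0.16, adjusted p = 3.92e-07). Within the list, the families differed in how far they moved. The 9 EMB34 transcripts were higher by 1.25 to 2.31 and the 9 LEA4 transcripts by 1.02 to 3.79, while the 4 LEA5-1 transcripts all lay between 2.63 and 2.69. All 17 spruce-named LEA transcripts were higher, the smallest by 1.05, and 4 of them had no count in EC. With library size alone 15 of these 17, 6 of the 9 LEA4 and 8 of the 9 EMB34 transcripts were still called.

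The 4 lower transcripts of this list were 2 of LEA3-3, 1 named SLE2 and 1 LEA hydroxyproline-rich glycoprotein. LEA3-3 (ppt_187910) had 4.95, 6.25 and 4.06 CPM in ES2 against 15.5, 19.6 and 34.7 CPM in EC (log2 fold change -2.20, SE 0.31, adjusted p = 3.30e-04). A LEA hydroxyproline-rich glycoprotein (ppt_41069), of a family that in Arabidopsis includes membrane proteins of the immune response, had 0.461, 0.932 and 0.448 CPM in ES2 and 16.9, 34.6 and 24.2 CPM in EC. Its log2 fold change was -5.37 (SE 0.39, adjusted p = 7.46e-06). A pair of transcripts of an MFT1-like protein, a relative of the seed dormancy regulator MOTHER OF FT AND TFL1, were not called, at log2 fold changes of 0.42 and 0.49.

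A globulin outside the keyword list went the other way. The small subunit of basic 7S globulin 2 (ppt_80005), a seed protein of legumes, had 17.6, 14.0 and 15.7 CPM in ES2 and 72.3, 77.2 and 88.3 CPM in EC (log2 fold change -2.33, SE 0.14, adjusted p = 3.22e-06). Within the list the 2S globulin (ppt_123612), a small seed storage protein, stood out with 71.0, 107 and 71.2 CPM in ES2 and 0.446, 0.137 and 0.101 CPM in EC (log2 fold change 8.65, SE 0.40, adjusted p = 8.34e-07). The other members moved by far less. A vicilin-like protein (ppt_75171), a storage globulin, had 30.1, 35.3 and 34.1 CPM in ES2 and 10.9, 9.16 and 10.4 CPM in EC (log2 fold change 1.71, SE 0.15, adjusted p = 1.85e-05). The 10 caleosins, calcium-binding proteins of the oil body surface, were higher by 1.32 to 2.42, with summed levels of 877 to 1188 CPM in ES2 and 262 to 413 CPM in EC.

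Pathogenesis-related proteins, which attack fungal walls and membranes and which many plants also make during seed development, gave the largest median of the defence groups. Of 87 tested, 79 were higher and 7 lower (median 6.01), and their summed level was 3224 to 4639 CPM in ES2 and 106.9 to 141.7 CPM in EC. All 46 chitinases were higher, from 2.45 upward, and together had 2181 to 3216 CPM in ES2 against 46.5 to 72.5 CPM in EC. Thaumatin-like protein L6 (ppt_53320), of an antifungal family, had 97.9, 101 and 97.0 CPM in ES2 and 0.186, 0.275 and 0.251 CPM in EC (log2 fold change 8.64, SE 0.18, adjusted p = 3.40e-08). Its relative L2 (ppt_53318) had 419, 366 and 321 CPM in ES2 and 1.45, 1.53 and 2.16 CPM in EC (log2 fold change 7.73, SE 0.22, adjusted p = 1.74e-07). All 5 ginkbilobins, antifungal proteins first known from Ginkgo seeds, were higher too, by 3.61 to 8.65.

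A minority of this list went the other way. The 4 defensin-1 transcripts, small antimicrobial peptides rich in cysteine, were lower by 1.89 to 2.33 on the log2 scale. The clearest, ppt_220689, had 2.71, 1.95 and 3.35 CPM in ES2 and 10.3, 16.9 and 9.50 CPM in EC (log2 fold change -2.19, SE 0.31, adjusted p = 2.88e-04). PR-1 proteins split by name, since 4 of the Medicago type were higher (summed 87.7 to 132 CPM in ES2 against 2.31 to 3.79 CPM in EC) and 3 of the pineapple type were lower (1.74 to 3.14 CPM against 7.77 to 14.0 CPM).

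Intracellular immune receptors, which detect pathogen molecules and switch on such defences, were mostly lower in ES2. Of 40 tested, 35 were lower and 3 higher (median -1.91). The 24 receptors with a TIR domain had 21 lower and 1 higher, and summed to 103 to 129 CPM in ES2 and 238 to 382 CPM in EC. The TIR/P-loop/LRR receptor ppt_144059 had 2.94, 2.95 and 2.87 CPM in ES2 and 8.74, 13.0 and 11.5 CPM in EC (log2 fold change -1.93, SE 0.22, adjusted p = 1.00e-04). A truncated TIR-NBS-LRR protein (ppt_172373) had 12.8, 15.0 and 21.1 CPM in ES2 and 43.5, 57.1 and 66.7 CPM in EC (log2 fold change -1.77, SE 0.22, adjusted p = 1.59e-04). Of the 3 exceptions, a disease resistance protein named after Scots pine (ppt_222098), had 22.3, 38.5 and 27.3 CPM in ES2 and 2.23, 3.20 and 4.47 CPM in EC (log2 fold change 3.14, SE 0.30, adjusted p = 3.32e-05).

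The machinery of DNA replication was lower in ES2 by a narrow margin that nearly all of its parts shared. Of 79 replication and repair transcripts 75 were lower and 4 higher (median -1.47), and their summed level was 1336 to 1416 CPM in ES2 and 2812 to 3271 CPM in EC. In bulk RNA, fewer dividing cells and less of this RNA per dividing cell cannot be told apart. Origin licensing comes first in replication. The 17 MCM transcripts, subunits of the helicase that opens the DNA, were all lower by 1.03 to 1.70 on the log2 scale and summed to 360.1, 358 and 353.5 CPM in ES2 A, B and C, against 844, 935.8 and 970.8 CPM in EC 1, 2 and 3. ORC1, CDC6 and CDT1, which load that helicase, had 10 of 11 transcripts lower and 1, a CDT1-like protein, higher by 1.99. At the fork, the 5 primase transcripts, 3 of DNA polymerase delta, 6 of topoisomerase 2 and 3 of replication protein A were all lower. Replication protein A coats single-stranded DNA, and its transcript ppt_285974 had 11.1, 10.8 and 11.1 CPM in ES2 and 64.5, 67.2 and 79.2 CPM in EC, the largest drop of the list (log2 fold change -2.68, SE 0.13, adjusted p = 1.12e-06). All 16 repair and checkpoint transcripts were lower, by 1.06 to 2.21.

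DNA polymerase epsilon, which copies the leading strand, was divided, with 2 transcripts against this shared shift and 2 in its direction. Its transcript ppt_218516 had 143, 123 and 124 CPM in ES2 and 5.46, 5.70 and 4.17 CPM in EC, more than 20 times the level in each EC library (log2 fold change 4.67, SE 0.17, adjusted p = 3.51e-07). Another transcript of the same name, ppt_218513, had 100.4, 95.5 and 99.0 CPM in ES2 and 3.72, 5.04 and 3.47 CPM in EC (log2 fold change 4.59, SE 0.17). The catalytic subunit matched in Arabidopsis, ppt_232847, was lower, with 1.44, 2.43 and 1.37 CPM in ES2 and 4.27, 6.66 and 7.92 CPM in EC (log2 fold change -1.85, SE 0.35). Subunit 2 (ppt_127540) was lower as well, with 11.3, 7.39 and 11.04 CPM in ES2 and 25.98, 24.95 and 26.25 CPM in EC (log2 fold change -1.37, SE 0.19). The small chain of ribonucleotide reductase (ppt_54841), the enzyme that makes DNA precursors, was also higher, with 10.1, 5.83 and 7.67 CPM in ES2 and 0.706, 0.481 and 0.277 CPM in EC, while the 5 other transcripts of this enzyme were lower by 1.08 to 1.27.

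Cell cycle and mitosis transcripts followed replication, with 62 of 72 lower and 3 higher (median -1.45). The 9 mitotic cyclins of types A and B were lower by 1.33 to 1.87, and the 5 D cyclins, which act at the entry into the cycle, by 1.42 to 1.71. Cyclin-D3-1 (ppt_161914) had 10.9, 9.65 and 11.6 CPM in ES2 and 33.4, 34.5 and 32.7 CPM in EC (log2 fold change -1.65, SE 0.14, adjusted p = 1.76e-05). Condensin, which packs mitotic chromosomes, had all 6 transcripts lower, and its subunit 1 (ppt_191919) had 11.4, 11.3 and 11.5 CPM in ES2 and 36.7, 45.8 and 49.0 CPM in EC (log2 fold change -1.94, SE 0.15, adjusted p = 1.10e-05). All 12 kinesins, 7 end-binding EB1C proteins and 4 beta-tubulins of the microtubule apparatus were lower. A pair of KRP transcripts, inhibitors of cyclin-dependent kinases, were not called at -0.58 and -0.79, but 1 of them was called lower with library size alone. The exceptions included cyclin-U2-1 (ppt_198381), with 7.89, 6.55 and 5.90 CPM in ES2 and 0.781, 0.504 and 0.704 CPM in EC. Another was a cyclin family protein (ppt_222279), at 29.1, 31.9 and 30.9 CPM in ES2 and 12.2, 16.5 and 15.2 CPM in EC, whose log2 fold change of 1.06 (SE 0.15, adjusted p = 3.55e-04) was 0.93 without EC replicate 1 and 0.75 with library size alone, both under the fold limit.

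Chromatin transcripts shifted by a like amount, with 53 of 62 lower and 6 higher (median -1.56). All 13 DNA methyltransferases were lower by 1.11 to 2.42 and summed to 574.9, 545.3 and 536.9 CPM in ES2 and 1713, 1887 and 1916 CPM in EC. Chromomethylase CMT, which keeps methylation outside CG sites, was among them (ppt_199487, with 265, 245 and 235 CPM in ES2 and 794, 786 and 788 CPM in EC, log2 fold change -1.67, SE 0.11, adjusted p = 5.74e-06). All 4 DDM1 remodellers, which open chromatin for these enzymes, 8 histone chaperones, which carry new histones to DNA, and 8 HMGB7 proteins were lower. Of 14 histones 11 were lower, 2 were not called and 1, an H3.3, was higher by 2.64. SGS3, which with an RNA-dependent polymerase makes small interfering RNAs, had 3 of the 6 increases, and ppt_136736 had 19.6, 23.2 and 19.2 CPM in ES2 and 4.16, 5.04 and 5.25 CPM in EC (log2 fold change 2.10, SE 0.18, adjusted p = 1.69e-05).

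**Figure D3:**
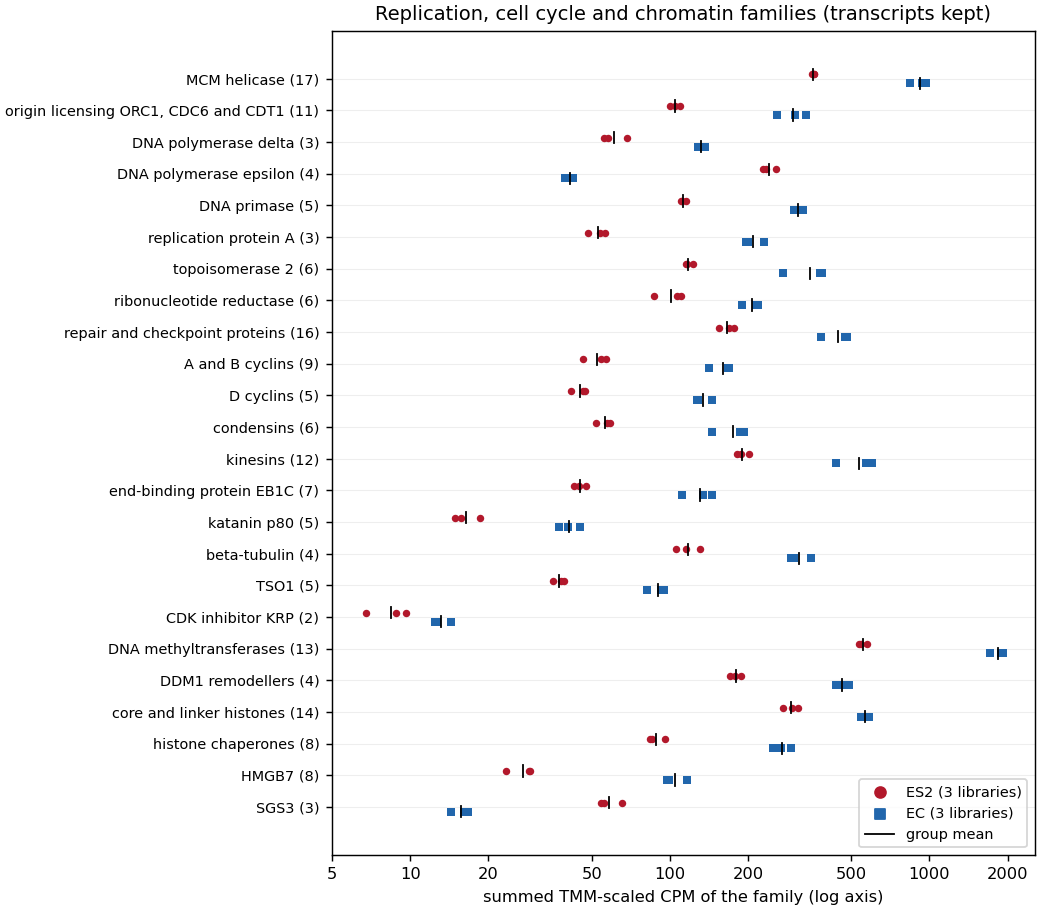
Summed TMM-scaled CPM (log x axis) of families of replication, cell cycle and chromatin proteins in each of the 3 ES2 libraries (circles) and 3 EC libraries (squares), with bars at the group means and the number of tested transcripts beside each name. ES2 lies left of EC in every family drawn except DNA polymerase epsilon and SGS3, and MCM helicase is at 353.5 to 360.1 in ES2 and 844 to 970.8 in EC.

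Nitrogen metabolism split into families that moved far apart, with 19 of 48 transcripts higher and 23 lower (median -0.02). These proportions are near those of all named transcripts (653 higher and 742 lower of 1552). Through ES2 alone 19 of the 48 passed the filter and through EC alone 13, so these had to differ to be tested. Asparagine synthetase makes asparagine, a major nitrogen carrier of conifer seedlings, and all 16 of its transcripts were higher. They summed to 721.7, 838.6 and 725.9 CPM in ES2 and 5.43, 4.12 and 4.25 CPM in EC. The transcript ppt_140062, named after maritime pine itself, had 121, 131 and 122 CPM in ES2 and 0.781, 0.435 and 0.704 CPM in EC (log2 fold change 7.63, SE 0.21, adjusted p = 1.49e-07). The 4 transcripts named as arogenate dehydratase, which makes phenylalanine, lay at the other extreme. They summed to 0, 0.391 and 0 CPM in ES2 and 111.6, 87.2 and 102 CPM in EC. The paper describes more members of this family, and by qPCR its member ADT-G was higher in line PN519 than in zygotic embryos at this stage. The 4 therefore do not stand for the whole enzyme. Enzymes of polyamines, small cations needed for cell growth, were lower at both ends of the pathway. The 4 transcripts of polyamine oxidase 5 were lower by 3.59 to 3.88 and the 5 of spermidine synthase by 1.03 to 1.91. Polyamine oxidase ppt_220652 had 1.27, 1.47 and 1.55 CPM in ES2 and 17.4, 18.9 and 27.1 CPM in EC (log2 fold change -3.88, SE 0.24, adjusted p = 3.54e-06). The 4 glutamine dumpers, exporters of amino acids in Arabidopsis, were not called at log2 fold changes of -0.14 to 0.73.

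Enzymes of phenylpropanoids, which turn phenylalanine into lignin precursors and flavonoids, had 23 of 40 transcripts higher and 12 lower (median 1.52). Of these 40, 13 passed the filter through ES2 alone and 3 through EC alone, and so had to differ to be tested. The methylation steps of lignin precursors were higher. All 9 transcripts of caffeic acid O-methyltransferase were higher by 6.11 to 7.41 and summed to 484.4, 722.1 and 571.8 CPM in ES2 and 5.76, 3.27 and 6.08 CPM in EC. Of the 12 decreases, 6 were in the flavonoid branch. Chalcone isomerase had 3 of 3 transcripts lower, and ppt_184799 had 13.4, 15.5 and 11.1 CPM in ES2 and 41.9, 39.1 and 46.5 CPM in EC (log2 fold change -1.67, SE 0.16, adjusted p = 3.63e-05). Flavanone 3-hydroxylase (ppt_120253) had no count in ES2 and 19.7, 12.5 and 19.7 CPM in EC, and was at least 610-fold lower when ES2 is set at 3 counts over the group. Phenylalanine ammonia-lyase, the entry enzyme, had 3 transcripts lower and 3 not called, at 0.85 to 0.89.

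Terpenoid synthesis, the source of conifer resin, had 34 of 39 transcripts higher and 5 lower (median 1.67), divided by product. Of these 39, 11 passed the filter through ES2 alone and 4 through EC alone, and so had to differ to be tested. HMG-CoA reductase, the main control point of the mevalonate pathway, had 8 of 9 transcripts higher, and ppt_120192 had 45.3, 45.6 and 45.9 CPM in ES2 and 13.3, 13.7 and 16.0 CPM in EC (log2 fold change 1.67, SE 0.13, adjusted p = 1.17e-05). Synthases of sesquiterpenes, and those named for both farnesene and ocimene, were higher as well. The 10 longifolene synthases were higher by 1.53 to 4.23, the 9 bisabolene synthases by 1.06 to 1.45, and the 7 farnesene and ocimene synthases by 3.50 to 5.43. With library size alone 6 of the 9 bisabolene synthases and 6 of the 8 HMG-CoA reductases were still called higher. Diterpene synthases of the resin acids went the other way. All 4 pimaradiene and isopimaradiene synthases were lower and summed to 0.259, 0.0601 and 0.105 CPM in ES2 and 56.1, 87.1 and 72.7 CPM in EC.

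Carbon metabolism was mostly higher in ES2, with 35 of 49 transcripts higher and 11 lower (median 2.94). Malate synthase, which works in the glyoxylate cycle when lipid is converted to sugar, was uniform over its 10 transcripts (3.14 to 3.41) and summed to 1729, 2159 and 1872 CPM in ES2 and 207.3, 196.6 and 192.3 CPM in EC. Alpha-galactosidases, which break down raffinose-type sugars, had 13 of 13 higher by 2.45 to 4.76. Inositol oxygenase, which feeds inositol into wall sugars, had 4 of 4 higher, and ppt_73953 had 101, 129 and 108 CPM in ES2 and 1.04, 1.01 and 1.06 CPM in EC (log2 fold change 6.76, SE 0.17, adjusted p = 1.14e-07). Enzymes that open sucrose and starch went down. Sucrose synthase had 4 of 5 lower (ppt_163186 with 2.94, 3.58 and 2.98 CPM in ES2 and 10.7, 10.9 and 14.1 CPM in EC, log2 fold change -1.91, SE 0.22, adjusted p = 8.40e-05), and alpha-amylase ppt_249192 had 26.4, 34.2 and 29.8 CPM in ES2 and 88.7, 107 and 95.6 CPM in EC (log2 fold change -1.69, SE 0.14, adjusted p = 1.56e-05). The 8 SWEET sugar transporters divided into 4 higher and 4 lower, and their median of 0.07 became -0.25 with library size alone.

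Cell wall proteins had 26 of 71 transcripts higher and 38 lower (median -1.36), near the proportions of all named transcripts (653 higher and 742 lower of 1552). Xyloglucan endotransglucosylase/hydrolases (XTH), which cut and rejoin the xyloglucan chains of growing walls, had 15 of 17 lower and 1 higher. They summed to 380.5, 368.6 and 336.5 CPM in ES2 and 2092, 3526 and 3115 CPM in EC. The XTH ppt_204166 had 2.10, 3.13 and 2.53 CPM in ES2 and 47.2, 37.3 and 42.2 CPM in EC (log2 fold change -4.03, SE 0.20, adjusted p = 1.07e-06). Pectin enzymes were mixed, with 7 of 9 polygalacturonases and 6 of 9 pectinesterases lower, and with 1 and 3 higher. Galacturonosyltransferase-like 9 (ppt_80550), of a family that builds wall polysaccharides, had 22.1, 32.6 and 27.0 CPM in ES2 and 107, 155 and 141 CPM in EC (log2 fold change -2.31, SE 0.19, adjusted p = 1.59e-05). Beta-galactosidases, which trim galactose from wall polymers, were the main group on the other side, with 11 of 11 higher by 2.84 to 7.11. Expansin-B17 (ppt_217289), which loosens walls, had 41.5, 45.8 and 40.3 CPM in ES2 and 1.52, 1.42 and 1.61 CPM in EC (log2 fold change 4.81, SE 0.16, adjusted p = 3.21e-07).

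Hormone genes had 28 of 65 higher and 28 lower (median -0.64), near the proportions of all named transcripts (653 higher and 742 lower of 1552). For auxin, all 6 GH3 enzymes, which bind auxin to amino acids, were lower, and GH3.6 (ppt_133951) had 4.78, 3.43 and 3.50 CPM in ES2 and 23.2, 24.2 and 25.5 CPM in EC (log2 fold change -2.64, SE 0.19, adjusted p = 6.69e-06). The 3 SAUR-like proteins of one name, small auxin-induced proteins, were higher by 6.01 to 6.41. For gibberellin, ent-kaurenoic acid oxidase, a step of synthesis, had 5 of 5 transcripts lower by 1.30 to 1.57, and gibberellin 2-oxidase, which inactivates the hormone, had both transcripts higher, by 2.60 and 3.26. Gibberellin-responsive GASA proteins went both ways, with 4 of 4 GASA2 transcripts higher by 5.49 to 8.58 and a Gasa5-like protein (ppt_159540) lower, at 2.42, 2.98 and 2.29 CPM in ES2 and 23.7, 14.6 and 12.8 CPM in EC (log2 fold change -2.73, SE 0.28, adjusted p = 4.59e-05). For ethylene, 8 of 9 ACC synthases, which make its precursor, were higher. For jasmonate, the 6 O-methyltransferases, which make methyl jasmonate, were higher by 2.70 to 2.82, and ppt_168572 had 752, 900 and 832 CPM in ES2 and 133, 108 and 142 CPM in EC (log2 fold change 2.70, SE 0.15, adjusted p = 2.04e-06). The 5 cytokinin receptor kinases were not called, at -0.77 to -0.37, but 2 of them were called lower with library size alone.

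Transcription factors had 51 of 131 transcripts higher and 69 lower (median -1.16), near the proportions of all named transcripts (653 higher and 742 lower of 1552). Of these 131, 26 passed the filter through ES2 alone and 20 through EC alone, and so had to differ to be tested. Several families moved as a block. All 11 NF-YA subunits, partners in a complex that regulates embryo genes, were lower by 1.13 to 1.53 and summed to 152 to 196 CPM in ES2 and 376 to 456 CPM in EC. All 3 CBF7 transcripts, of the cold response family, were lower by 4.14 to 4.51. All 7 MYB30 and all 7 ERF1 and ERF1A transcripts were higher, and NAC factors had 8 of 13 higher and 5 lower. NAC protein 1 (ppt_58155) had 49.2, 59.2 and 50.4 CPM in ES2 and 1.26, 1.53 and 1.06 CPM in EC (log2 fold change 5.36, SE 0.20, adjusted p = 3.65e-07). The factor bHLH62 (ppt_202456) had 9.24, 12.1 and 12.8 CPM in ES2 and 85.0, 104 and 69.7 CPM in EC (log2 fold change -2.92, SE 0.19, adjusted p = 5.06e-06). The next 3 factors, all lower, were picked after their values were seen. CUP-SHAPED COTYLEDON 2 (ppt_183182), which sets the boundary between cotyledons in Arabidopsis, averaged 8.08 ± 0.53 CPM in ES2 and 34.1 ± 5.67 CPM in EC (SD, n = 3 each, log2 fold change -2.08, SE 0.17, adjusted p = 1.52e-05). SCARECROW, a regulator of root and shoot layers, averaged 50.3 CPM in ES2 and 113 CPM in EC (log2 fold change -1.17), and WRI1, which directs oil synthesis in seeds, 37.7 CPM in ES2 and 86.6 CPM in EC (log2 fold change -1.20).

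Of 63 hub transcription factors that the study listed, 54 were tested here, and all of these were called, 46 lower and 8 higher in ES2. As hubs they had been picked for following these very libraries. All 10 ERF factors and all 7 HMG proteins were lower, MYB factors had 6 lower and 1 higher, and NAC factors 3 higher and 2 lower. ERF012 (ppt_3095), of the ethylene response family, had 2.71, 2.52 and 1.82 CPM in ES2 and 15.0, 19.2 and 16.4 CPM in EC (log2 fold change -2.85, SE 0.22, adjusted p = 1.20e-05). HMGB7 (ppt_230049), a protein that bends DNA, had 3.17, 2.68 and 3.03 CPM in ES2 and 13.0, 14.4 and 12.2 CPM in EC (log2 fold change -2.16, SE 0.19, adjusted p = 2.42e-05). Histone H3.3 (ppt_231180) had 2.50, 2.52 and 1.397 CPM in ES2 and 31.0, 13.1 and 17.4 CPM in EC, with EC 1 far above the other two (log2 fold change -3.26, SE 0.37, adjusted p = 9.33e-05). BEARSKIN1 (ppt_192238), a NAC protein of the Arabidopsis root cap, had 11.6, 17.4 and 15.0 CPM in ES2 and no count in EC, at least 540-fold higher with EC at 3 counts over the group. A call near the limit was the UPF1-type regulator ppt_152102, with 1.09, 1.56 and 1.71 CPM in ES2 and 2.90, 2.72 and 4.37 CPM in EC (log2 fold change -1.19, SE 0.34, adjusted p = 0.0145), which was lost without EC replicate 3 (-0.96, adjusted p = 0.0633). The hub listed as b-Zip, ppt_72463, carries the name of a LINE-1 reverse transcriptase in the name table, so its family is uncertain, and it had 6.02, 3.46 and 3.77 CPM in ES2 and 21.8, 21.5 and 15.0 CPM in EC.

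Redox and stress proteins had 36 of 65 transcripts higher and 23 lower (median 1.59). All 7 hemoglobins, which in plants remove nitric oxide, were higher by 4.53 to 6.90, and non-symbiotic hemoglobin 1 (ppt_126446) had 128, 91.3 and 121 CPM in ES2 and 0.892, 1.76 and 1.51 CPM in EC (log2 fold change 6.32, SE 0.26, adjusted p = 5.15e-07). The 1-Cys peroxiredoxins, antioxidants of seeds, were higher by 1.59 and 1.62. Peroxidases, which act on walls and on hydrogen peroxide, divided by name. The 5 transcripts of peroxidases 44 and 57 summed to 143 to 211 CPM in ES2 and 0.0458 to 0.149 CPM in EC, whereas of the 21 others 14 were lower and 4 higher. Peroxidase 25 (ppt_212924) had 0.633, 0.541 and 0.474 CPM in ES2 and 5.50, 8.74 and 11.2 CPM in EC (log2 fold change -3.94, SE 0.35, adjusted p = 2.46e-05).

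Cytochromes P450, enzymes that oxidize small molecules, had 25 of 31 transcripts higher and 2 lower (median 3.96), of which 21 passed the filter through ES2 alone. CYP92A40 (ppt_255780) had 23.0, 31.4 and 24.2 CPM in ES2 and 0.595, 0.504 and 0.804 CPM in EC (log2 fold change 5.36, SE 0.25, adjusted p = 8.75e-07). The CYP78A group, which promotes the growth of seeds and organs in Arabidopsis, showed that a count of calls and the summed level can part. Of its 10 transcripts 8 were higher in ES2 and 1 lower, yet they summed to 293.2, 289 and 292.8 CPM in ES2 and 441.3, 493.3 and 436.6 CPM in EC. The largest part of the sum was ppt_161397, with 211, 197 and 201 CPM in ES2 and 386, 417 and 371 CPM in EC, which was not called at a log2 fold change of -0.95 (SE 0.11, adjusted p = 1.02e-04). With library size alone its log2 fold change was -1.26, and the group then had 7 higher and 2 lower.

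Transporters had 34 of 76 higher and 30 lower (median 0.49), near the proportions of all named transcripts (653 higher and 742 lower of 1552). All 9 ABC transporters of subfamily G were higher by 2.29 to 3.98, and all 6 transcripts of the plasma membrane proton pump ATPase 11, which drives uptake, were lower by 1.48 to 2.61. The cation-transporting ATPase 4 (ppt_91111) had 10.4, 9.44 and 10.9 CPM in ES2 and 35.1, 46.2 and 43.97 CPM in EC (log2 fold change -2.02, SE 0.16, adjusted p = 1.10e-05). Metal tolerance protein 4 was near the limit, with 6 of 7 transcripts not called and log2 fold changes of 0.38 to 1.07. Kinases had 42 of 71 lower and 17 higher (median -1.19). The WAK-like kinase ppt_64498, of a family anchored in the wall, had 33.3, 33.4 and 35.3 CPM in ES2 and 109, 122 and 108 CPM in EC (log2 fold change -1.73, SE 0.11, adjusted p = 4.32e-06). CLAVATA1 (ppt_283077), a receptor that limits stem cells in Arabidopsis, had 8.46, 7.09 and 6.67 CPM in ES2 and 41.4, 32.2 and 34.5 CPM in EC (log2 fold change -2.28, SE 0.17, adjusted p = 8.79e-06). Organelle-encoded and photosynthesis transcripts, of which little is captured by selection on poly(A) tails, had 2 higher, 2 lower and 3 not called, and the lower count was 5 without ES2 C or without EC 1 and 1 without any of the other libraries.

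**Figure D4:**
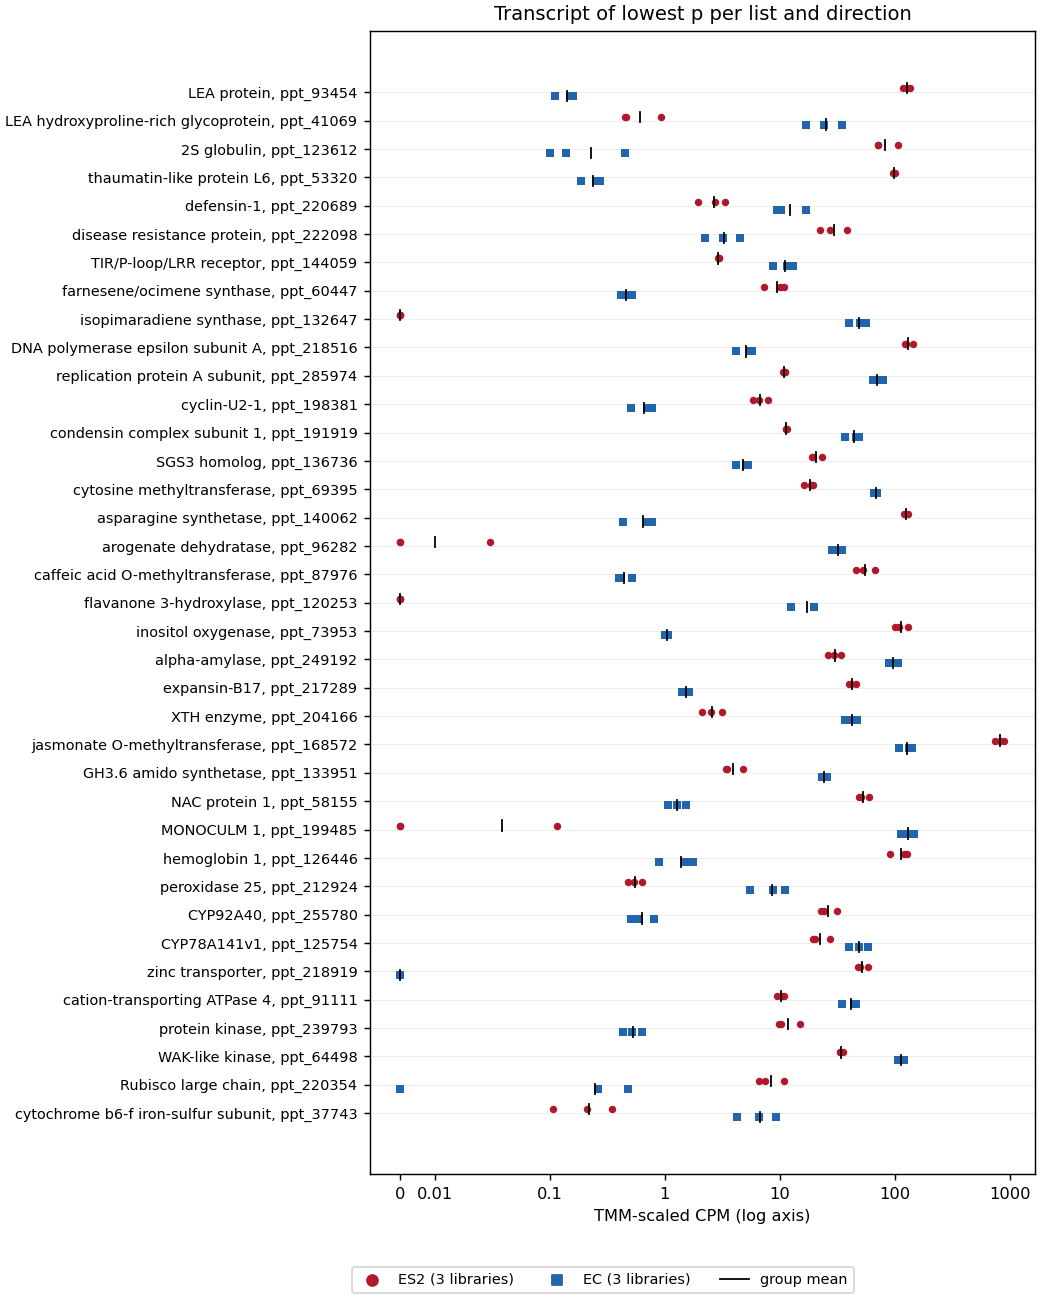
TMM-scaled CPM of the called transcript with the lowest p in each list and direction, for the 3 ES2 libraries (circles) and 3 EC libraries (squares), with bars at the group means. The x axis is logarithmic, and libraries with no count are placed at a mark labelled 0 at its left end, at no true distance. The groups do not overlap in any row by the choice of the transcripts. The gap is narrow for CYP78A141v1 (ppt_125754, 19.6 to 27.3 in ES2 and 40.3 to 58.4 in EC) and wide for LEA protein ppt_93454 (119 to 135 in ES2 and 0.112 to 0.160 in EC). Other rows have a group with no count at all.

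Some transcripts were counted in only 1 of the groups. There were 138 with no count in EC, of which 51 averaged at least 10 CPM in ES2, and 232 with no count in ES2, of which 60 averaged at least 10 CPM in EC. Embryo type and genotype cannot be told apart for these either. The 10 named transcripts with the largest fitted increases all had no count in EC, so their fitted values do not rank them. They included a LEA protein (ppt_60090, with 106, 99.2 and 84.8 CPM in ES2), a chitinase (ppt_155033, with 62.1, 113 and 39.8 CPM), non-specific phospholipase C2 (ppt_199283, with 22.2, 27.0 and 24.3 CPM), a membrane lipid hydrolase, and a copper transporter (ppt_31157, with 23.0, 14.5 and 14.6 CPM). With EC at 3 counts over the group these were at least 3560-fold, 2629-fold, 901-fold and 638-fold higher in ES2. Of the decreases, a WAT1-related transporter (ppt_217559, with 32.1, 20.9 and 36.0 CPM in EC), a DETOXIFICATION exporter (ppt_102141, with 14.2, 8.36 and 7.84 CPM), a putative oxidoreductase (ppt_132966, with 12.3, 12.2 and 9.73 CPM) and an arogenate dehydratase (ppt_96283, with 18.7, 13.4 and 16.2 CPM) had no count in ES2. They were at least 1047-fold, 358-fold, 403-fold and 568-fold lower in ES2. Cytosolic isoleucine tRNA ligase (ppt_239068) had 1 count in the ES2 libraries together and 99.3, 29.6 and 25.7 CPM in EC, with EC 1 more than 3 times the others.

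The same contrast at the stage before, early somatic (ES1) against pre-cotyledonary zygotic embryos (PC), was used to ask where the somatic to zygotic difference itself changed between the stages. In an edgeR fit of the 12 libraries of the 4 groups, the difference was higher at ES2 and EC for 472 of the 22795 transcripts (2.07%) and lower for 719 (3.15%), together 1191 (5.22%). For most transcripts the difference between the embryo types was therefore not shown to change, and a missed threshold does not show that it stayed the same. Of the 472, 302 were called higher in ES2 than in EC, 139 were not called there and 31 were called lower. Of the 719, 193 were called lower, 380 not called and 146 called higher in ES2 than in EC. Both counts leaned on the scaling, with 357 and 1042 under library size alone, and on the libraries fitted, with 241 and 470 in a fit of all 18.

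Asparagine synthetase made up the largest named group whose difference grew, with 11 of its 16 transcripts. In the scaling over 12 libraries, ppt_140063 averaged 146.3 ± 6.28 CPM in ES2 and 0.798 ± 0.296 CPM in EC (SD, n = 3 each), and 77.3 ± 0.65 CPM in ES1 and 4.35 ± 0.52 CPM in PC. The ES2 libraries lay above all ES1 libraries, and the EC libraries below all PC libraries. The difference of the log2 fold changes was 3.41 (SE 0.24, edgeR adjusted p = 3.05e-05). Spruce-named LEA proteins had 7 of 17 transcripts that grew apart, and ppt_93454 averaged 134.7 ± 8.5 CPM in ES2 and 0.148 ± 0.027 CPM in EC, and 64.5 ± 9.62 CPM in ES1 and 1.38 ± 0.10 CPM in PC (difference 4.21, SE 0.25, adjusted p = 2.01e-05). Expansin-B17 (ppt_217289) had close zygotic levels at both stages, at 45.0 CPM in ES2 and 1.60 CPM in EC, and 12.5 CPM in ES1 and 1.64 CPM in PC (difference 1.89, SE 0.27, adjusted p = 0.00127). The polymerase epsilon transcript ppt_218516 was at 137.6 CPM in ES2 and 5.39 CPM in EC, and 79.0 CPM in ES1 and 7.02 CPM in PC (difference 1.19, SE 0.21, adjusted p = 0.0046).

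In the other direction, all 6 jasmonate O-methyltransferases were less far apart at the later stage. Their transcript ppt_168568 averaged 879 ± 61.4 CPM in ES2 and 134 ± 21.5 CPM in EC, and 741 ± 14.5 CPM in ES1 and 41.9 ± 7.16 CPM in PC (difference -1.43, SE 0.20, adjusted p = 0.00114), so that the zygotic level differed more between the stages than the somatic level. Basic 7S globulin 2 (ppt_80005) averaged 16.7 ± 1.86 CPM in ES2 and 83.5 ± 8.60 CPM in EC, and 63.2 ± 3.66 CPM in ES1 and 102 ± 7.68 CPM in PC (difference -1.64, SE 0.16, adjusted p = 1.36e-04). CLAVATA1 (ppt_283077) averaged 7.83 CPM in ES2 and 38.0 CPM in EC, and 8.28 CPM in ES1 and 15.1 CPM in PC (difference -1.41, SE 0.24, adjusted p = 0.00402). Of the replication, cell cycle and chromatin lists, 2 transcripts passed both the p and the fold limit upward, both of polymerase epsilon. Downward 2 passed both limits, an EB1C protein and a histone H1. Members that missed only the fold limit are left out of these counts, and their directions were not counted. Condensin subunit 1 (ppt_191919) was such a case (difference -0.79, SE 0.19, edgeR adjusted p = 0.024).

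**Figure D5:**
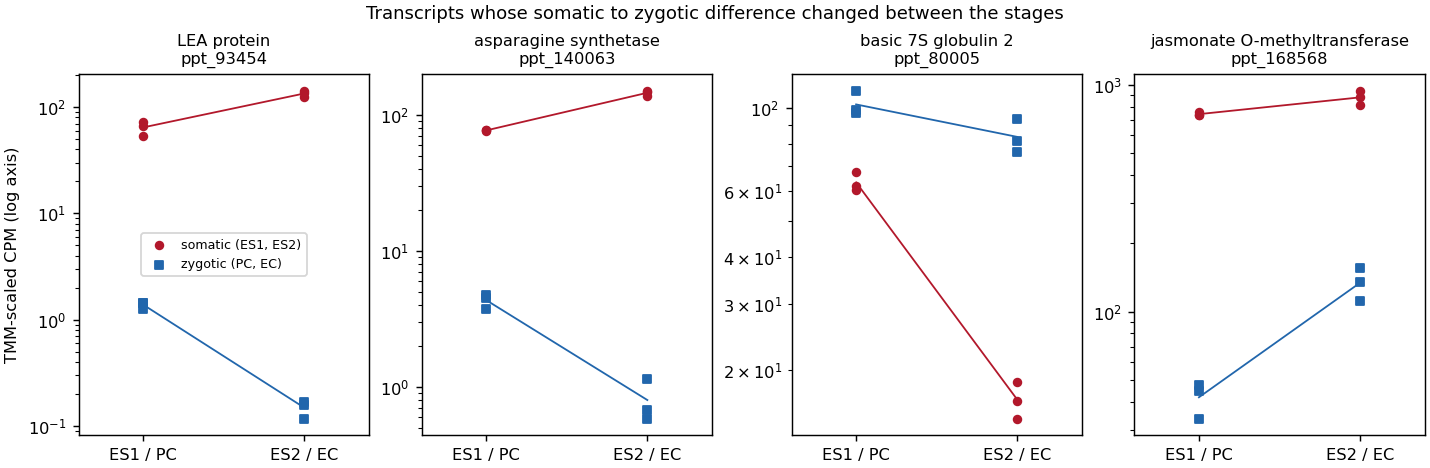
TMM-scaled CPM (log y axes, 1 panel per transcript, each with its own scale) in somatic libraries (circles, ES1 and then ES2) and zygotic libraries (squares, PC and then EC), 3 libraries each, with lines through the group means. The gap widens toward the later stage for the LEA protein and asparagine synthetase, opens for basic 7S globulin 2, where ES2 is at 16.7 and EC at 83.5 on average, and narrows for jasmonate O-methyltransferase, where EC is at 134 and PC at 41.9.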

How the data were processed

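The authors sequenced poly(A)-selected RNA from somatic and zygotic embryos, trimmed the reads, mapped them with BWA to a maritime pine transcriptome and deposited raw read counts per transcript and library. How reads that map to several transcripts were counted is not given in the sources used here. From the authors' lists of hub genes and modules came the protein names, the hub transcription factors and their family labels, and none of their values were used.

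Groups came from the sample labels. Transcripts above 2 CPM in at least 3 of the 6 ES2 and EC libraries were scaled by TMM and tested with edgeR 4.0.16 (R 4.3.3, limma 3.58.1) by the quasi-likelihood F-test. The p-values were adjusted by Benjamini-Hochberg over all 22795 transcripts, and a call needed a log2 fold change beyond 1 in either direction and an adjusted p below 0.05. Standard errors were derived from the log2 fold change and the square root of its F statistic. The change between stages was a contrast in a fit of the 12 ES1, ES2, PC and EC libraries, whose scaling differs slightly. Fold bounds set a group with no count at 3 counts. Named were, per list and direction, the 2 called transcripts of lowest p with different names, groups that do not overlap and 5 CPM or more in the higher one, the 10 largest fitted changes each way of at least 10 CPM, the hub transcription factor of lowest p per family, and the 2 stage differences of lowest p each way. Members, lists and families were chosen with earlier results of these data known. Alternatives were other filters, scalings, tests (DESeq2 1.42.0 and limma-voom among them), thresholds, library sets and single libraries left out. Library depth of 24726220 to 40755797 counts sets the counting precision. No reference genome was used, so no sequence or position is given.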

Additional observations from a re-analysis of the deposited data

Results flagged for a closer look

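The somatic to zygotic difference changed between the stages, by a direct test of that change in edgeR, for 472 transcripts upward and 719 downward. These counts were 241 and 470 in a fit of 18 libraries. The named transcripts of lowest p were LEA protein ppt_93454 (difference of log2 fold changes 4.21), asparagine synthetase ppt_140063 (3.41), basic 7S globulin 2 ppt_80005 (-1.64) and jasmonate O-methyltransferase ppt_168568 (-1.43). Groups of 3 libraries were not searched for outlying samples.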

How the results depend on the processing

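None of the 95 transcripts named by the fixed rules reversed its direction in any setting that tested single transcripts. Other calls of ES2 against EC given above were not followed over all settings. With no fold limit 7154 transcripts were higher and 6643 lower, and with a limit of 2 on the log2 scale 2769 and 1512. Library size alone gave 4225 higher and 5532 lower. The other filters, scalings, tests, thresholds and library sets gave 4790 to 5832 higher and 3524 to 4496 lower, and leaving out single libraries gave 4993 to 5339 higher and 3815 to 4053 lower. With PC in place of EC, 5728 were higher and 4381 lower, of which 4619 and 3251 were shared with the calls against EC. The changes between stages numbered 241 upward and 470 downward in a fit of 18 libraries, 357 and 1042 with library size alone, and 329 to 506 and 545 to 833 without single libraries. The 4 named differences then ranged over 4.11 to 4.32, 3.24 to 3.70, -1.76 to -1.54 and -1.54 to -1.29. The cause of these shifts was not tested. With PC in place of EC, 2 named transcripts fell short of the fold limit, CLAVATA1 (ppt_283077, -0.96) and a cyclin family protein (ppt_222279, 0.71).

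No paired analysis was possible because ES2 libraries carry letters and EC libraries numbers, which share no replicate label. Between stages of the same embryo type the labels recur, and with a replicate block 318 transcripts changed upward and 511 downward. Deviations of libraries with the same label correlated at 0.274, -0.425 and -0.421 for ES2 and ES1 and at -0.124, -0.32 and 0.359 for EC and PC, so they were not taken as pairs.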
